A study of Mus musculus with 88 samples.

Results

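Fgf5, Pou3f1, Sema6a, Penk and Sox3, 5 genes of the formative epiblast, were followed through mouse embryonic stem cells (ESCs) that lacked subunits of Polycomb Repressive Complex 2 (PRC2). The 5 members were chosen by gene name with earlier results of these tables in view, out of 53697 genes in the mesoderm table, 54393 in the endoderm table, 26007 in the bulk embryoid body table and 15830 in the single-cell table, and 5 of 5 were present in each. Because of that choice, the calls below describe these genes and say nothing about formative genes as a class. The directed differentiation samples were monolayers labelled strain E14 with the genotype wild type (WT), Mtf2 null or Jarid2 null, taken undifferentiated (UD) or after 5, 24 or 48 h of treatment towards mesoderm or endoderm, with 2 libraries per group. The single cells were labelled as E14 embryoid bodies (EBs) of 1 of 4 genotypes, WT or null for Mtf2, Jarid2 or Eed. They were taken at day 0, 4, 7 or 10, with 1 library per group. The study calls their day 0 undifferentiated, so the form of the culture may change together with time between day 0 and day 4. The bulk EBs were of 6 lines at day 0, 2, 4 or 7, with 1 sample per group: mutant lines labelled mtf2ko, jarid2ko and eedko, and the lines that the study names as their matched WT, which were Pcl1-3 WT, JM8 and J1. The labels call each of these samples EBs, but the table's column names carry mono at day 0 and eb at later days, so the form of the culture may change between day 0 and day 2 together with time. All cells were grown in serum with leukemia inhibitory factor (LIF) before differentiation. The study's methods name other WT lines than E14 as background-matched to the mutants, and each genotype was 1 line, so in the directed and single-cell data the loss of a subunit and the origin of the line cannot be told apart. The paired directed libraries were described as technical, so p-values measure only the spread between these libraries.

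PRC2 methylates lysine 27 of histone H3 and represses developmental genes. EED is a core subunit, MTF2 brings one form of the complex to unmethylated CpG-rich DNA, and JARID2 belongs to the other form. On leaving naive pluripotency, ESCs pass through a formative state that resembles the early post-implantation epiblast, in which naive genes are shut down while lineage genes are still low. Fgf5 is a secreted fibroblast growth factor and a classic marker of that epiblast. Pou3f1 (also called Oct6) is a POU transcription factor of the epiblast and of neural progenitors. Sox3 is a transcription factor of the SOXB1 group, shared with Sox1 and Sox2. Sema6a is a transmembrane semaphorin that binds A-type plexins and is known from axon guidance. Penk encodes proenkephalin, the precursor of the enkephalin opioid peptides.

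The promoter of Fgf5 is shown because MTF2 is known to bind CpG-rich DNA. It covers 250 bases before and 50 bases after the start of the gene in RefSeq (GRCm38.p6, chr5:98253934-98254233, plus strand), and its CG dinucleotides are in capitals.
Fgf5 promoter: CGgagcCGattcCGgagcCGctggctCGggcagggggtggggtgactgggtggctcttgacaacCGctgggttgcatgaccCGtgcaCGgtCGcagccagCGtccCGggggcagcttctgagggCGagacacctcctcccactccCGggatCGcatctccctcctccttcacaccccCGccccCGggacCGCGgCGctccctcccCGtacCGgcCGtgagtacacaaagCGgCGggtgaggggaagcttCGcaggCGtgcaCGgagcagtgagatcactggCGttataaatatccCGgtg
This window held 29 CG dinucleotides and was 68.3% G or C. Of 32851 RefSeq promoters of the same length, 12.9% held as many CG dinucleotides, and the median promoter held 7. The letters describe the sequence, and no binding was measured here. The promoter table matched 1 of the 5 members.

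In the GENCODE M21 annotation of GRCm38, the 5 members were protein-coding genes at chr5:98254184-98277030 on the plus strand (Fgf5), chr4:124656807-124660655 on the plus strand (Pou3f1), chr18:47235598-47368870 on the minus strand (Sema6a), chr4:4133531-4138819 on the minus strand (Penk) and chrX:60891366-60893430 on the minus strand (Sox3).

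The directed libraries held 9111880 to 16898264 estimated counts, the bulk EB samples 4071242 to 30457254 reads, and the single-cell libraries 202 to 347 cells with a median of 4997 to 10603 transcript molecules, counted by unique molecular identifiers (UMIs), per cell. In the undifferentiated directed libraries, Mtf2 was 32.5 ± 1.93 CPM (counts scaled to the size of the library, SD, n = 4) in the Mtf2 null cells and 453 ± 71.3 in WT. Jarid2 was 306 ± 10.7 CPM in the Jarid2 null cells and 407 ± 52.6 in WT, a difference that did not pass the test, and transcripts outside a deleted part would not check that label. In the single-cell libraries, Mtf2 lay at 53.7 to 61.1 UMI CPM in the Mtf2 null libraries against 365 to 793 in WT, Jarid2 at 115 to 185 in the Jarid2 null libraries against 215 to 594, and Eed at 1.33 to 11.5 in the Eed null libraries against 115 to 478. The bulk EB labels were not borne out in the same way. At day 0, Mtf2 was 316 CPM in the library labelled Mtf2 null, 127 in the library labelled Jarid2 null and 415 in Pcl1-3 WT, and Eed was 111 in the library labelled Eed null and 106 in J1. Over all days, Mtf2 was lower in the line labelled Mtf2 null than in Pcl1-3 WT. The log2 fold change was -0.75 ± 0.30 (SE, adjusted p = 0.0847, limma). In the line labelled Jarid2 null against JM8, Mtf2 gave -0.29 ± 0.30 (adjusted p = 0.559, limma). Eed gave 0.10 ± 0.21 in the line labelled Eed null against J1 (adjusted p = 0.803, limma). The bulk EB mutants are therefore called by their labels only.

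Before differentiation, Sema6a was higher in Mtf2 null cells than in both other genotypes, and neither Pou3f1 nor Sox3 passed the test. Over the 4 undifferentiated libraries per genotype from both directed series, Sema6a ranged from 2.69 to 4.05 CPM in Mtf2 null, from 0.359 to 0.576 in WT and from 0.0864 to 0.563 in Jarid2 null cells. The Mtf2 null libraries were all above the others, and the WT and Jarid2 null libraries overlapped. The log2 fold change was 2.87 ± 0.36 (SE) against WT (adjusted p = 7.69e-06, edgeR) and 2.91 ± 0.35 against Jarid2 null (adjusted p = 5.20e-06, edgeR). Here and below, a directed call needed an adjusted p under 0.001 and an absolute log2 fold change over 1. Of 16655 genes tested, 14.7% were called for Mtf2 null against WT, 14.0% for Mtf2 null against Jarid2 null and 1.15% for Jarid2 null against WT. Pou3f1 ranged from 4.90 to 7.45 CPM in Mtf2 null, 5.66 to 8.55 in WT and 5.07 to 6.34 in Jarid2 null cells, so the groups overlapped. Sox3 ranged from 0.419 to 1.14 CPM, 0.566 to 1.63 and 0.322 to 0.691 in the same order, and these groups overlapped too. Fgf5 and Penk did not pass the filter on low counts in this fit, so 3 of 5 members were tested. For Jarid2 null against WT, 0 of the 3 were called by edgeR, 1 had an unadjusted p under 0.05 (Sox3), and DESeq2 called 0.

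During directed differentiation, Sema6a and Pou3f1 were the members called higher in Mtf2 null cells, and 5 of 5 members passed the filter in each series. Of the 20 tests in each series (5 members at 4 times), 6 were called in the mesoderm series and 5 in the endoderm series, each higher in Mtf2 null. At 48 h of the endoderm series edgeR called 0 of 5, with 3 at an unadjusted p under 0.05, and DESeq2 called 0. The background of all genes called for Mtf2 null against WT was 11.1% at UD, 7.56% at 5 h, 5.72% at 24 h and 6.82% at 48 h in the mesoderm series, and 11.0%, 7.61%, 6.58% and 10.5% in the endoderm series. The median log2 fold change over the 5 members was -0.26, 1.19, 1.81 and 0.55 at these times in the mesoderm series and 0.17, 2.09, 1.97 and -0.48 in the endoderm series, while that of all genes lay between -0.05 and 0.01. The plot of levels by time shows all 5 genes on the CPM scale.

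**Figure D1:**
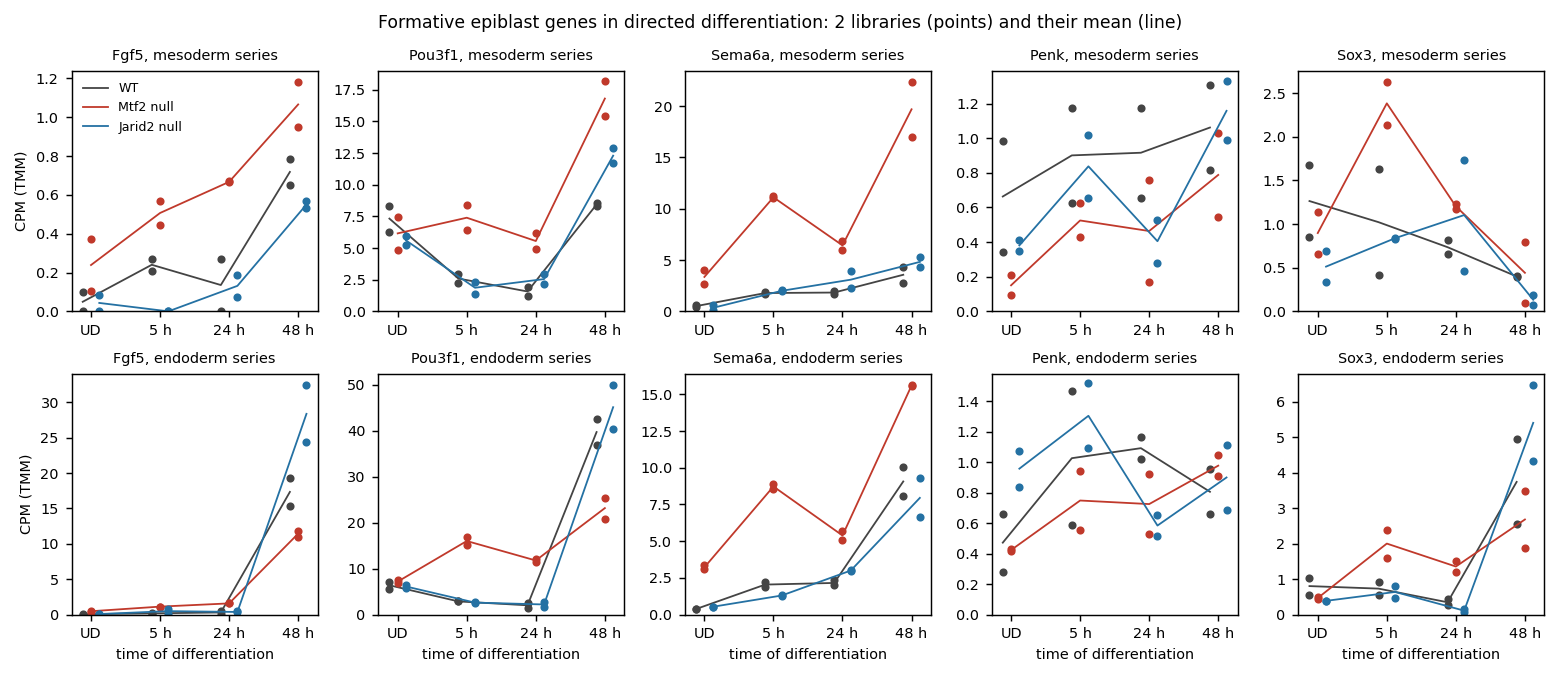
Level of each of the 5 genes in CPM (y axis, scaled by the trimmed mean of M-values, TMM) at UD, 5 h, 24 h and 48 h (x axis) in the mesoderm series (top) and the endoderm series (bottom). Points are single libraries, lines join the means of 2 libraries, and the y axes differ between panels. Sema6a in Mtf2 null cells (red) lies above WT (grey) and Jarid2 null (blue) at every time in both series.

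Sema6a, the plexin ligand, was above WT in both Mtf2 null libraries at each time of each series. In the mesoderm series, the Mtf2 null libraries held 4.01 and 2.70 CPM at UD, 11.2 and 11.0 at 5 h, 6.84 and 6.02 at 24 h, and 22.4 and 17.0 at 48 h. The WT libraries held 0.591 and 0.426, 1.90 and 1.67, 1.99 and 1.68, and 2.81 and 4.32 CPM at the same times. The level in the Mtf2 null cells at 5 h was thus above that of WT at 48 h. The log2 fold changes were 2.72 ± 0.45 (SE), 2.63 ± 0.32, 1.81 ± 0.33 and 2.47 ± 0.28, with adjusted p-values of 5.92e-05, 3.34e-06, 0.000315 and 1.31e-06 (edgeR). The UD call was lost without Mtf2 null replicate 1 (log2 fold change 2.40) or WT replicate 2 (2.49), and the 24 h call without any 1 of its 4 libraries (1.69 to 1.93). In the endoderm series, the Mtf2 null libraries held 3.35 and 3.09 CPM at UD, 8.88 and 8.57 at 5 h, 5.72 and 5.05 at 24 h, and 15.6 in each at 48 h. The WT libraries held 0.379 and 0.375, 2.24 and 1.84, 2.33 and 1.98, and 8.06 and 10.1 CPM. The log2 fold changes were smaller at later times, with values of 3.06 ± 0.33, 2.09 ± 0.21 and 1.32 ± 0.21 at UD, 5 h and 24 h that were called (adjusted p = 2.03e-07, 1.42e-07 and 6.43e-05, edgeR) and of 0.78 ± 0.17 at 48 h (adjusted p = 0.00103), which was not. The 24 h call was lost without Mtf2 null replicate 1 (1.23) or WT replicate 2 (1.2).

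Pou3f1, the POU factor, was level with WT before differentiation and above it at 5 h and 24 h in the Mtf2 null cells. In the endoderm series the WT libraries held 7.10 and 5.62 CPM at UD, 2.86 and 2.85 at 5 h and 2.62 and 1.41 at 24 h. The Mtf2 null libraries went from 6.78 and 7.54 CPM to 15.0 and 17.0 and then 11.4 and 12.1. At UD the genotypes overlapped, and at 5 h and 24 h both Mtf2 null libraries were above WT. The log2 fold change was 2.48 ± 0.22 (SE) at 5 h (adjusted p = 1.98e-08, edgeR) and 2.56 ± 0.23 at 24 h (adjusted p = 2.64e-08, edgeR), and these calls held without any single library. At 48 h the order turned, with 20.9 and 25.4 CPM in Mtf2 null and 42.5 and 36.8 in WT, a log2 fold change of -0.78 ± 0.16 that missed the fold threshold (adjusted p = 0.000691, edgeR). In the mesoderm series, the Mtf2 null libraries held 4.85 and 7.46 CPM at UD, 6.41 and 8.39 at 5 h, 6.18 and 4.93 at 24 h and 18.2 and 15.5 at 48 h. The WT libraries held 6.31 and 8.35, 2.26 and 2.92, 1.90 and 1.24, and 8.56 and 8.32 CPM. Pou3f1 was called at 5 h (1.52 ± 0.27, adjusted p = 0.000248, edgeR) and at 24 h (1.83 ± 0.30, adjusted p = 0.000112, edgeR), and at 48 h the log2 fold change of 0.99 ± 0.23 was not called. The 5 h call was lost without WT replicate 1 (1.34), WT replicate 2 (1.72) or Mtf2 null replicate 2 (1.33), and the 24 h call without Mtf2 null replicate 1 (1.67) or WT replicate 2 (1.54).

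Fgf5, the epiblast ligand, was near the limit of detection until 48 h. In the endoderm series, Mtf2 null libraries held 12 counts each at 5 h (1.13 and 1.11 CPM) and 17 and 21 at 24 h (1.57 and 1.58 CPM), while WT held 1 and 3 counts and 2 and 7 counts. The Mtf2 null libraries were higher at both times, and the log2 fold changes of 2.73 ± 0.67 (adjusted p = 0.00335, edgeR) and 2.33 ± 0.51 (adjusted p = 0.00163, edgeR) missed the threshold. The call at 24 h depended on the tool, since DESeq2 called it (2.37), and with no filter on low counts edgeR called both (2.71 and 2.33). At 48 h of the endoderm series Fgf5 was 11.0 and 11.9 CPM in Mtf2 null, 19.3 and 15.4 in WT and 24.3 and 32.4 in Jarid2 null cells. The Mtf2 null libraries were the lowest at that time and the Jarid2 null libraries the highest, with log2 fold changes against WT of -0.60 ± 0.24 (adjusted p = 0.0540, edgeR) and 0.71 ± 0.23 (adjusted p = 0.0658, edgeR), neither called. In the mesoderm series, Fgf5 had at most 13 counts in a library.

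Sox3 and Penk gave no call between genotypes. In the endoderm series, Sox3 was 1.61 and 2.40 CPM in Mtf2 null and 0.540 and 0.921 in WT at 5 h, and 1.2 and 1.51 against 0.436 and 0.256 at 24 h. The Mtf2 null libraries were above WT at both times, with log2 fold changes of 1.45 ± 0.48 (adjusted p = 0.0237, edgeR) and 1.97 ± 0.54 (adjusted p = 0.00955, edgeR). In the mesoderm series, Sox3 had 1 to 37 counts per library. Penk, the enkephalin precursor, had 1 to 21 counts per library, from 0.0934 to 1.52 CPM. Its log2 fold changes for Mtf2 null against WT ran from -2.06 at UD of the mesoderm series (0.0934 and 0.207 CPM against 0.985 and 0.341, adjusted p = 0.0695, edgeR) to 0.27 at 48 h of the endoderm series. At this depth, a moderate difference in Penk was not detectable in the directed libraries.

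**Figure D2:**
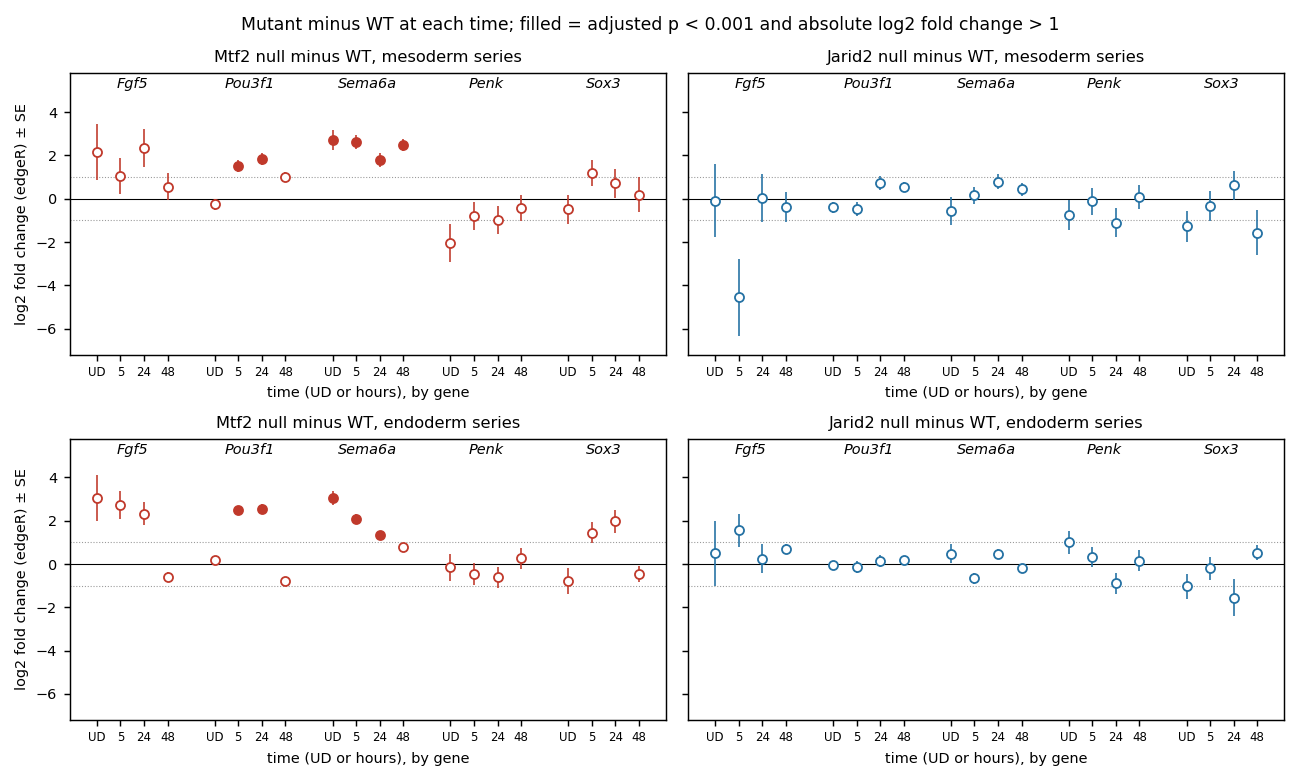
Log2 fold change of each gene against WT (y axis, ± SE from edgeR) at each time (x axis), for Mtf2 null (left) and Jarid2 null (right) in the mesoderm (top) and endoderm (bottom) series, 2 libraries per group. Filled points passed an adjusted p under 0.001 and an absolute log2 fold change over 1 (dotted lines), which Sema6a and Pou3f1 did in Mtf2 null cells and no gene did in Jarid2 null cells.

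Jarid2 null cells gave no call against WT. In each series, 0 of 20 tests for Jarid2 null against WT were called by edgeR, with 4 and 3 at an unadjusted p under 0.05 in the mesoderm and endoderm series, and DESeq2 called 0 in each. Calls were rare among all genes too, at 0.370%, 0%, 1.97% and 0.169% in the mesoderm series and 0.742%, 0.0363%, 0.0312% and 0.125% in the endoderm series from UD to 48 h. Both Jarid2 null libraries of the mesoderm series were above both WT libraries in Sema6a at 5 h (1.95 and 2.06 against 1.90 and 1.67 CPM) and at 48 h (5.31 and 4.33 against 2.81 and 4.32), and in Pou3f1 at 48 h (12.9 and 11.7 against 8.56 and 8.32), with log2 fold changes of 0.16 ± 0.38, 0.44 ± 0.30 and 0.54 ± 0.23 that were not called. At 24 h of that series the Jarid2 null libraries held 3.93 and 2.24 CPM of Sema6a and 2.95 and 2.15 of Pou3f1, above both WT libraries, with log2 fold changes of 0.78 ± 0.35 (adjusted p = 0.113, edgeR) and 0.73 ± 0.32 (adjusted p = 0.112, edgeR). Other groups went the other way. Both Jarid2 null libraries were below both WT libraries at 5 h of the endoderm series in Sema6a (1.36 and 1.23 against 2.24 and 1.84 CPM) and Pou3f1 (2.73 and 2.46 against 2.86 and 2.85). The same held for Sox3 at UD of each series, at 24 h of the endoderm series (0.0738 and 0.145 against 0.436 and 0.256) and at 48 h of the mesoderm series (0.190 and 0.0760 against 0.392 and 0.408). Fgf5 was at 0 counts in both Jarid2 null libraries at 5 h of the mesoderm series against 3 and 2 counts in WT, where both groups were at or under a floor of 3 counts per library.

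The change from UD to 24 h in Mtf2 null cells was set against that in WT in 1 test of the difference. For Pou3f1 it was 2.39 ± 0.32 (log2, SE) higher in Mtf2 null in the endoderm series (adjusted p = 4.19e-05, edgeR), the only call among 10 such tests in that series, and it held without any single library. In the mesoderm series the same difference was 2.10 ± 0.39 with an adjusted p of 0.00110 (edgeR), just outside the threshold. For Sema6a the difference went the other way in the endoderm series (-1.74 ± 0.42, adjusted p = 0.00880, edgeR), and was not called. Of all genes, 2.27% and 2.36% were called for Mtf2 null in the mesoderm and endoderm series, and 0.136% and 0.0675% for Jarid2 null. For Mtf2 null in the mesoderm series 0 of 5 members were called by edgeR, 1 had an unadjusted p under 0.05, and DESeq2 called 1 (Pou3f1). For Jarid2 null 0 of 5 were called by edgeR and by DESeq2 in each series, with 1 at an unadjusted p under 0.05 in each.

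In WT cells, most calls of the members were in the last step of the endoderm series. Between 24 h and 48 h of that series 4 of 5 members were called higher, while 3.88% of all genes were called in either direction. Fgf5 went from 0.145 and 0.447 CPM to 19.3 and 15.4, a log2 fold change of 5.79 ± 0.38 (adjusted p = 9.85e-10, edgeR). Pou3f1 went from 2.62 and 1.41 to 42.5 and 36.8 CPM (4.32 ± 0.22, adjusted p = 3.57e-11, edgeR). Sox3 went from 0.436 and 0.256 to 4.94 and 2.54 CPM (3.42 ± 0.49, adjusted p = 2.72e-05, edgeR), a call that was lost without WT 24 h replicate 2 (3.08). Sema6a went from 2.33 and 1.98 to 8.06 and 10.1 CPM (2.07 ± 0.20, adjusted p = 2.14e-07, edgeR). For each of these 4 genes both 48 h libraries were above both 24 h libraries. Penk was not called (-0.42 ± 0.49). In the mesoderm series the same step gave 1 call among 5, Pou3f1 at 2.44 ± 0.29 (adjusted p = 3.24e-06, edgeR), where 4.16% of all genes were called, and Fgf5 reached 0.784 and 0.652 CPM at 48 h, a step of 2.45 ± 0.86 that was not called. Whether the steps of the 2 series differed was not tested, since the tables were fitted separately.

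The first steps gave fewer calls. From UD to 5 h, Sema6a rose in the endoderm series (2.41 ± 0.35, adjusted p = 4.46e-05, edgeR), a call lost without WT 5 h replicate 1 (2.27) or WT UD replicate 2 (2.41), and Pou3f1 fell in the mesoderm series (-1.51 ± 0.28, adjusted p = 0.000320, edgeR), a call lost without WT 5 h replicate 1 (-1.31), WT 5 h replicate 2 (-1.69) or WT UD replicate 2 (-1.28). The background was 4.13% in the mesoderm and 2.10% in the endoderm series. Sema6a in the mesoderm series gave 1.81 ± 0.49, which edgeR called only with no filter on low counts (1.82). Pou3f1 in the endoderm series gave -1.15 ± 0.24, which edgeR did not call, while DESeq2 (-1.16), upper-quartile scaling (-1.28) and no filter (-1.15) did. From 5 h to 24 h, 0 of 5 members were called by edgeR in either series, with 1 (mesoderm) and 0 (endoderm) at an unadjusted p under 0.05, DESeq2 called 0 in each, and 4.41% and 2.5% of all genes were called.

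Other genes of the same state and pathways did not all move with the members. In undifferentiated Mtf2 null cells against WT, 1 of 12 other formative genes was higher and 4 were lower (median log2 fold change 0.18, against -0.04 for all genes), namely Grhl2, an epithelial transcription factor (2.96), and Zic5 (-3.69), Zic2 (-2.86), Dnmt3a and Tcf15. Of 12 naive pluripotency genes 5 were higher, among them Klf5, and 1 was lower, Zfp42 (-2.47), with a median of 0.74. During differentiation Otx2, a homeobox factor of the formative epiblast, fell in Mtf2 null against WT at 5 h, 24 h and 48 h of the mesoderm series (-2.39, -3.37 and -1.11) and at 24 h and 48 h of the endoderm series (-4.25 and -2.16). Fgfr2, a receptor of fibroblast growth factors, was higher at each time in both series (1.88 to 2.33), and Dnmt3b, a DNA methyltransferase, at 5 h, 24 h and 48 h except 48 h of the endoderm series (1.13 to 1.51).

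Of 7 semaphorin 6 class and plexin genes, 2 were higher and 1 lower in undifferentiated Mtf2 null cells: Sema6d (3.71), Plxna4, an A-type plexin (2.51), and Sema6b (-1.5), where 14.7% of all genes were called. The 2 higher genes were at low levels. Sema6d ranged from 0 to 0.175 CPM in WT and 1.13 to 1.42 in Mtf2 null, and Plxna4 from 0.192 to 0.524 and 1.81 to 2.60. With 2 libraries a group, the mesoderm fit called 0 of the 7 at UD and the endoderm fit 1 higher and 2 lower. Of the POU and SOXB paralogs 3 of 6 were tested there and 0 called, and of the enkephalin processing and receptor genes 3 of 6 were tested and 0 called. In the step from 24 h to 48 h of WT in the endoderm series, 7 of 12 other formative genes were higher and 0 lower (median 1.54, against 0.00242 for all genes), led by Dnmt3b (2.83), Zic2 (2.65), Otx2 (2.51) and Sall2 (2.04). In that step 7 of 12 naive genes were lower and 0 higher (median -1.41), led by Tbx3 (-2.77), Klf4 (-2.54) and Tfcp2l1 (-2.46). T, the primitive streak factor Brachyury, fell in the same step (-8.81) after its rise from 5 h to 24 h (4.39). In the step of the mesoderm series, 5 of 12 other formative genes were higher and 1 lower, Cdh2. Among the neural genes Nes, which encodes an intermediate filament protein, was higher at 48 h in both series (2.42 and 3.57). Of the 8 primitive streak genes 6 were tested in the endoderm series and 5 in the mesoderm series. The part of the shift in cell state in the members' levels was not tested, and in bulk samples more cells of a type and more RNA per cell cannot be told apart.

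In the bulk EBs, 5 of 5 members passed the filter, each value is 1 sample, and the 3 WT lines stood in for replicates of a day. From day 2 to day 4, Fgf5, Sema6a and Penk rose in WT (3 of 5 members, with 28.3% of all genes called at an adjusted p under 0.05 by limma). Fgf5 went from 0.253, 1.5 and 3.27 CPM in Pcl1-3 WT, JM8 and J1 to 17.1, 29.7 and 27.2, a log2 change of 4.09 ± 1.01 (SE, adjusted p = 0.0163, limma). Sema6a went from 6.59, 31.8 and 13.5 CPM to 78.5, 210.5 and 85.2 (2.95 ± 0.39, adjusted p = 0.00173, limma). Penk went from 0.887, 0.632 and 0.578 CPM to 2.13, 3.54 and 6.46 (2.10 ± 0.51, adjusted p = 0.0159, limma). In all 3 lines each of these genes was higher at day 4. The Fgf5 call was lost without JM8 (4.12), and the Penk call without JM8 (2.12) or J1 (1.65). Pou3f1 did not pass (0.86 ± 0.69), since it went from 13.0 to 72.2 CPM in Pcl1-3 WT and from 38.6 to 61.2 in JM8, but from 26.4 to 18.8 in J1. Sox3 changed by 0.51 ± 0.41.

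From day 0 to day 2, where culture form and time cannot be told apart, 0 of 5 members were called by limma, 1 had an unadjusted p under 0.05 and edgeR called 0, where 12.7% of all genes were called. From day 4 to day 7, 0 of 5 were called by limma, 4 had an unadjusted p under 0.05 and edgeR called 0, where 0.0961% of all genes were called. In this last step, Fgf5 went from 29.7 to 3.27 CPM in JM8 and from 27.2 to 0.913 in J1, but stood at 17.1 and 18.6 in Pcl1-3 WT. Without Pcl1-3 WT the step was called for Fgf5 (-3.83) and Pou3f1 (-2.50).

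**Figure D3:**
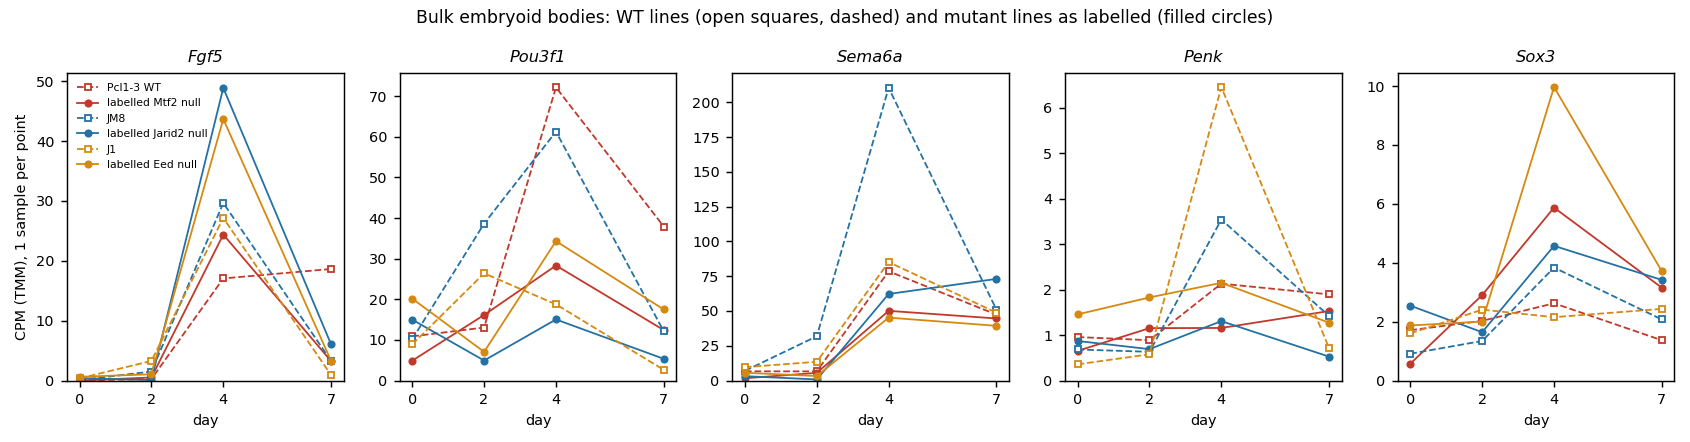
Level of each gene in the bulk EBs in CPM (y axis, TMM-scaled) against day (x axis) for 6 lines, 1 sample per point, with WT lines as open squares and dashed lines and the lines labelled as mutants as filled circles. In 5 of 6 lines Fgf5 is highest at day 4, and Sema6a at day 4 reaches 210.5 CPM in JM8 against 45.2 to 85.2 in the other lines.

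Against their matched WT lines, the lines labelled as mutants gave 1 call among 15. Sema6a was 3.14, 0.778, 62.2 and 73.1 CPM at days 0, 2, 4 and 7 in the line labelled Jarid2 null and 6.98, 31.8, 210.5 and 51 in JM8. It was lower on 3 of 4 days, with a log2 fold change of -1.85 ± 0.56 (adjusted p = 0.0325, limma). The call was lost without day 2 (-0.78) or day 4 (-1.88), with no day block (-1.85) and with edgeR on reads (-1.61), and without day 0 Pou3f1 was also called lower (-2.01). For the line labelled Mtf2 null against Pcl1-3 WT and that labelled Eed null against J1, 0 of 5 members were called by limma, 0 had an unadjusted p under 0.05 and edgeR called 0. In the line labelled Mtf2 null, Sema6a gave -0.72 ± 0.56 (adjusted p = 0.399, limma), opposite in sign to the directed series, and Pou3f1 -0.94 ± 0.60 (adjusted p = 0.297, limma). In counts divided by size factors, its Sema6a columns held 5.02 and 10.9 at day 0, against 40.3 and 27.3 in Pcl1-3 WT. Both lines overlapped in Sema6a at days 2 and 7. All genes were called at 18.5%, 14.9% and 11.1% for the lines labelled as null for Mtf2, Jarid2 and Eed in that order. In day 4 EBs, Fgf5 was 24.4, 48.9 and 43.7 CPM in the lines labelled as null for Mtf2, Jarid2 and Eed, each above its matched WT line (17.1, 29.7 and 27.2). The order turned at day 7 in the line labelled Mtf2 null, with Fgf5 at 3.25 CPM against 18.6 in Pcl1-3 WT. At day 2 it turned in the lines labelled Jarid2 null (0.0864 against 1.5 in JM8) and Eed null (1.04 against 3.27 in J1). Fgf5 stayed above the matched line at day 7 in both of these lines. In counts divided by size factors, the columns held 31.2 and 31.9 in that labelled Jarid2 null against 19.5 and 13.9 in JM8. Those of the line labelled Eed null held 20.0 and 15.3 against 5.64 and 4.12 in J1. Over all days the log2 fold changes of Fgf5 were -0.32 ± 0.77, 0.03 ± 0.77 and 0.36 ± 0.77 in the same order, none called by limma. Pou3f1 was lower than its matched line at day 4 in the lines labelled Mtf2 null (28.3 against 72.2 CPM) and Jarid2 null (15.0 against 61.2) and higher in that labelled Eed null (34.3 against 18.8). These values rest on labels that Mtf2 at day 0 and Eed did not bear out. Over all days Mtf2 was lower as labelled but did not pass the test.

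In the single-cell libraries, each member was highest at day 4 or day 7 in each genotype, and at day 10 the Mtf2 null library held the highest level of each. There was 1 library per genotype and day and no test between genotypes was made, and the intervals given are exact 95% Poisson or Clopper-Pearson intervals that cover counting error only. The table held 4949 cells, of which 0 had counts identical to another cell. Summed over cells, the Mtf2 null value was above WT in 20 of 20 pairs of gene and day (18 by the share of cells with a UMI after each cell was thinned to 2500 UMIs, which left out 492 shallower cells), the Jarid2 null value in 18 (17) and the Eed null value in 12 (14). These pairs share cells and libraries and are not independent. The share of all genes above WT between the same libraries was not counted, so the counts are not a result about the members. For Mtf2 null, the intervals of the ratio to WT included 1 for Penk at day 0 (0.772 to 10.5) and Sox3 at day 0 (0.573 to 3.92) and day 7 (0.766 to 1.62). Fgf5 at day 0 rested on 3 UMIs against 0. Several intervals of the other genotypes included 1 as well.

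**Figure D4:**
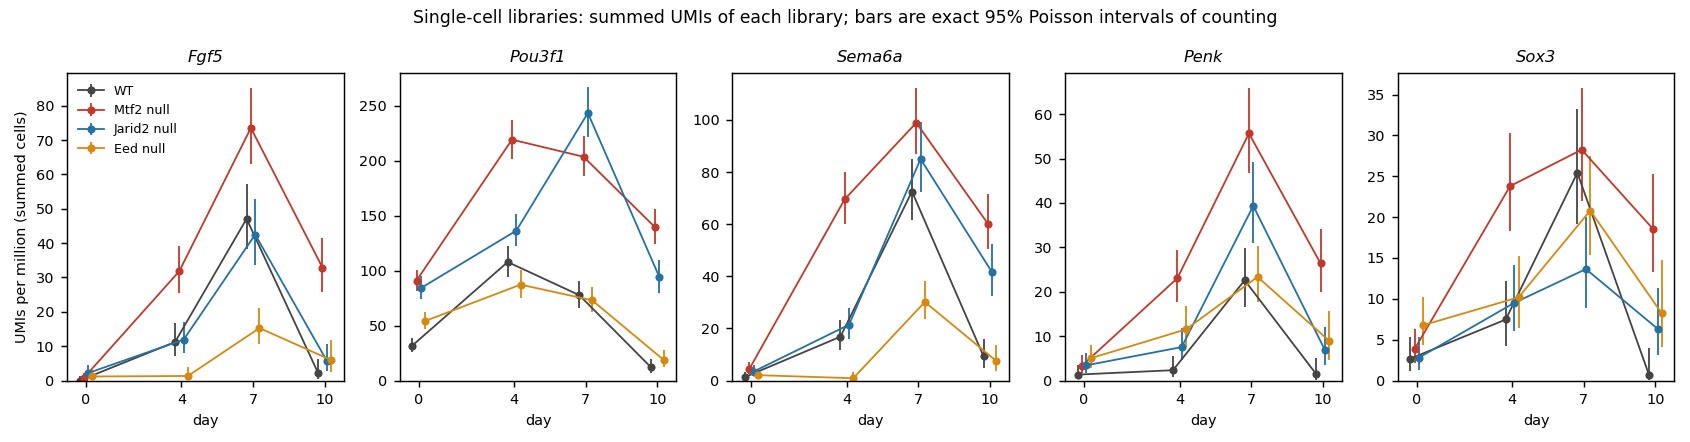
UMI CPM of each gene, summed over the cells of a library (y axis), against day of EB differentiation (x axis) for 4 genotypes, with 1 library per point and bars for the exact 95% Poisson interval of counting. At day 10 the Mtf2 null library is the highest for each gene, with Fgf5 at 32.9 against 2.15 in WT.

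Fgf5 was at 0 UMIs in the 340 WT cells of day 0, for which the exact interval reaches 1.08% of cells with a UMI and a floor of 3 cells gives 0.882%. It was 11.2 UMI CPM at day 4 (7.18 to 16.7), 47.1 at day 7 (38.3 to 57.3) and 2.15 at day 10 (0.443 to 6.27) in WT. In Mtf2 null it was 31.8, 73.5 and 32.9 at these days, with ratios to WT of 2.84 (1.79 to 4.67), 1.56 (1.22 to 2.02) and 15.3 (5.03 to 76). The day 10 ratio rests on 3 UMIs in 1 WT cell against 71 UMIs in 29 of 321 Mtf2 null cells. In Jarid2 null the day 4 and day 7 ratios were 1.06 (0.60 to 1.90) and 0.903 (0.665 to 1.22), intervals that include 1. In Eed null Fgf5 had 3 UMIs at day 4, a ratio of 0.119 (0.0229 to 0.391), and 15.3 UMI CPM at day 7 (0.325, 0.215 to 0.479). After thinning, 4.20% of Mtf2 null and 0.524% of WT cells held an Fgf5 UMI at day 10, and unthinned 9.03% and 0.467%.

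Sema6a followed a like course, at 16.8, 72.5 and 9.30 UMI CPM in WT at days 4, 7 and 10. In Mtf2 null it was 69.5, 98.9 and 60.2, with ratios of 4.14 (2.88 to 6.08), 1.36 (1.11 to 1.68) and 6.47 (3.66 to 12.5). In Jarid2 null the day 10 level of 41.5 was 4.46 times that of WT (2.45 to 8.78), while the day 4 and day 7 intervals included 1. In Eed null it was all but missing at day 4, with 2 UMIs over 320 cells against 36 over 331 in WT, a ratio of 0.0527 (0.00615 to 0.205), and it was 30.1 at day 7 (0.416, 0.309 to 0.554).

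Pou3f1 was detected from the start. At day 0 it was 31.8 UMI CPM in WT, 91.0 in Mtf2 null (2.86, 2.28 to 3.63), 84.1 in Jarid2 null (2.65, 2.09 to 3.38) and 54.2 in Eed null (1.71, 1.32 to 2.21). In the directed UD libraries the genotypes overlapped in Pou3f1. WT reached 108 at day 4, 77.7 at day 7 and 12.2 at day 10. Mtf2 null held 219, 204 and 139, and Jarid2 null 136, 243 and 93.9. At day 10 the ratios to WT were 11.5 (7.04 to 19.9) in Mtf2 null and 7.72 (4.68 to 13.6) in Jarid2 null. By summed UMIs, Eed null was slightly below WT at day 4, at 0.809 (0.666 to 0.983), and its day 7 interval included 1, at 0.940 (0.755 to 1.17). At day 4 the direction depended on the measure. The mean of the per-cell CPM was 90.7 in Eed null and 83.0 in WT. The share of cells with a UMI was 30.3% and 23.3%, or 16.6% and 14.6% after thinning. Fgf5 and Sema6a in Eed null were further below WT on both days.

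Penk and Sox3 were rarer. Penk in WT was 2.33 UMI CPM at day 4 (5 UMIs), 22.6 at day 7 and 1.43 at day 10 (2 UMIs). Mtf2 null held 23.1, 55.7 and 26.4, with ratios of 9.88 (4.02 to 31.5), 2.46 (1.76 to 3.5) and 18.4 (4.88 to 156). Eed null was above WT in Penk at day 4, at 11.5 (4.93, 1.86 to 16.5), the day at which its Fgf5 and Sema6a were below WT. Sox3 in WT was 7.47, 25.4 and 0.715 (1 UMI) at days 4, 7 and 10, and in Mtf2 null 23.8, 28.3 and 18.5, with ratios of 3.18 (1.82 to 5.90) at day 4 and 1.11 (0.766 to 1.62) at day 7. In Jarid2 null Sox3 was below WT at day 7, at 13.6 (0.537, 0.323 to 0.872), the day at which its Pou3f1 was 3.13 times that of WT (2.62 to 3.77). For Sox3 in Mtf2 null at day 10 the summed level and the thinned share disagreed in size, with 6.85% of cells unthinned and 0.699% thinned against 0.467% and 0.524% in WT.

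By the deposited clusters (res.2.5, 22 clusters), 4 of 5 members were highest in cluster 1, one of the clusters that the study classed as ectodermal. The clusters were made from these same cells, so the levels are a description. Cluster 1 held 341 cells (167 Mtf2 null, 117 Jarid2 null, 51 WT and 6 Eed null) with a median of 7420 UMIs, and 46.7% of all Fgf5 UMIs, 44% of those of Sema6a, 48.3% of those of Penk, 35.4% of those of Pou3f1 and 27.1% of those of Sox3. There Fgf5 was 102 UMI CPM (90.5 to 114), Pou3f1 487 (462 to 512), Sema6a 174 (159 to 190) and Penk 90.2 (79.7 to 102). In cluster 1, 40.5% of cells held an Fgf5 UMI and 54% a Sema6a UMI, or 23.5% and 31.3% after thinning to 2500 UMIs. As a background, 0 of 335 cells of cluster 3 (median 8485 UMIs, 307 of them WT at day 0) held an Fgf5 UMI (exact upper bound 1.10%, or 0.896% by the floor of 3 cells), and 0 of 258 cells of cluster 9 (median 4916.5 UMIs) held either (1.42%, or 1.16% by the floor).

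**Figure D5:**
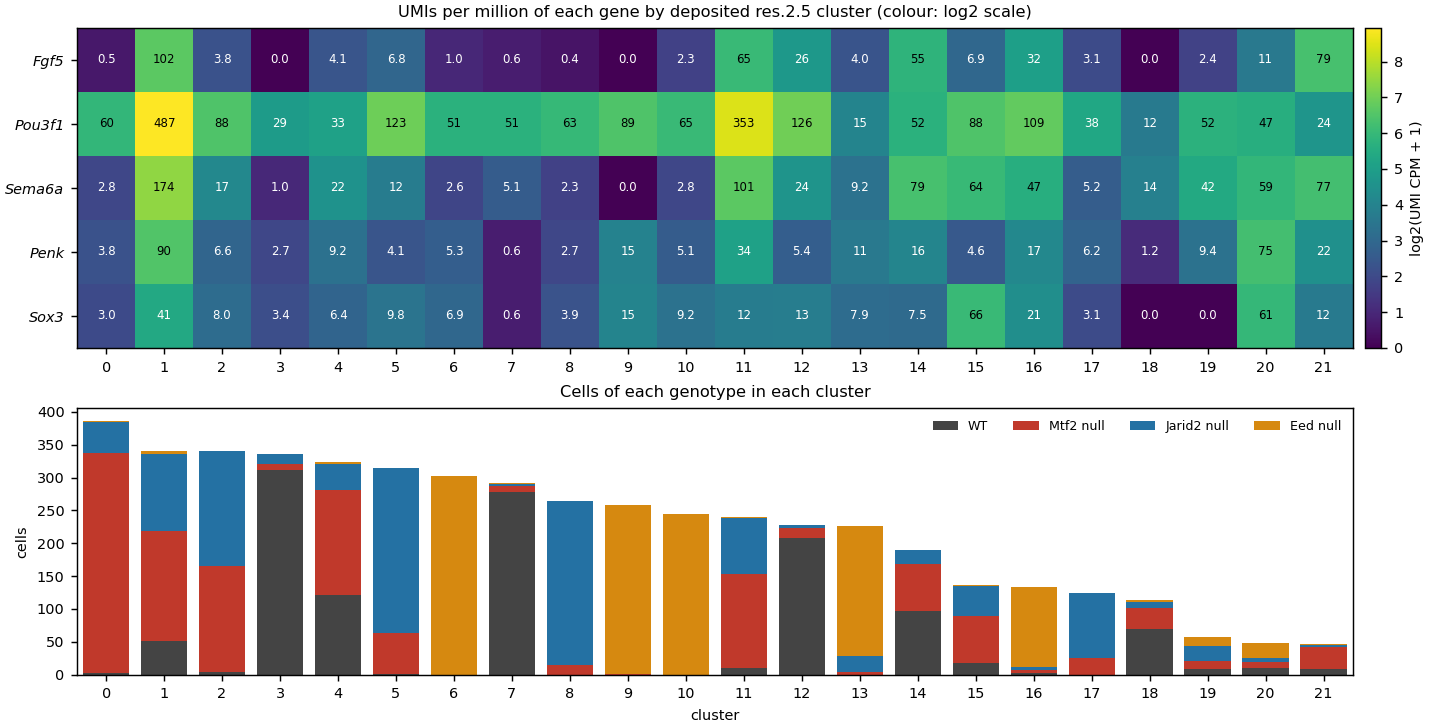
Top, UMI CPM of each gene (rows, numbers in the cells, colour on a log2 scale after adding 1) in each deposited res.2.5 cluster (columns). Bottom, the number of cells of each genotype in each cluster (stacked bars, y axis from 0). Cluster 1, made up mostly of Mtf2 null and Jarid2 null cells, has the highest value for Fgf5, Pou3f1, Sema6a and Penk, and cluster 15 for Sox3.

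In cluster 11, also classed as ectodermal, Pou3f1 was 353 (322 to 387), Sema6a 101.4 (84.7 to 120), Fgf5 64.7 (51.6 to 80.3) and Penk 33.5 (24.3 to 45.2), so Fgf5 stood beside high Pou3f1 there as in cluster 1. Fgf5 was 79.0 (54.4 to 111) in cluster 21, classed as endodermal, and 55 (43.7 to 68.3) in cluster 14, where Pou3f1 was 23.9 and 51.6. Sema6a was 76.6 in cluster 21 and 78.7 in cluster 14. Fgf5 and Sema6a were thus found without high Pou3f1 in clusters 14 and 21. Sox3 was 65.6 (49.7 to 85.0) in cluster 15 and 61.4 (38.5 to 92.9) in cluster 20, intervals that overlap, and 40.5 (33.6 to 48.5) in cluster 1, while Fgf5 was 6.91 in cluster 15. Penk was 75.3 (49.6 to 110) in cluster 20, where 24 of its 27 UMIs came from 23 Eed null cells.

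Cells of cluster 1 were also set side by side by genotype, pooled over days that differ between genotypes: 49 of the 51 WT cells and 90 of the 117 Jarid2 null cells were of day 7, and of the 167 Mtf2 null cells 70 were of day 4 and 72 of day 7. Fgf5 was 120 UMI CPM in WT (88.0 to 159), 111 in Mtf2 null (94.8 to 128) and 82.7 in Jarid2 null (65.7 to 103). Penk was 68.8 (45.3 to 100), 110 (94.2 to 128) and 66.4 (51.2 to 84.6). Sema6a was 125 (92.3 to 165), 186 (165 to 208) and 178 (152 to 206), and Pou3f1 was 295 (244 to 354), 472 (439 to 508) and 585 (538 to 635), both lowest in WT. Sox3 was 43.3 (25.2 to 69.3), 51.8 (41.2 to 64.4) and 21.4 (13.3 to 32.8), lowest in Jarid2 null. The share of a library's cells in cluster 1 was 0.604% at day 4 and 15.5% at day 7 in WT, 21.1% and 20.9% in Mtf2 null, and 29.8% at day 7 in Jarid2 null and 1.88% in Eed null. How far the levels of a library follow from the number of its cells in cluster 1 was not tested.

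Cells with several members were counted as well. At least 2 of the 5 genes had a UMI in 6.04% of WT cells at day 4 and 20.9% at day 7, in 28.1% and 36.3% of Mtf2 null cells, in 8.10% and 25.8% of Jarid2 null cells and in 2.5% and 11.9% of Eed null cells, all without thinning. All 5 were seen together only in Mtf2 null cells, in 3 cells at day 4, 3 at day 7 and 2 at day 10. Depth differed between these libraries. The median was 7450 UMIs in Mtf2 null at day 4, against 5233 in WT, 6605 in Jarid2 null and 5515.5 in Eed null. At day 7 it was 6209.5, 5774.5, 5272 and 6313 in the same order. The part of depth in these counts was not tested. Over all 4949 cells, 63.2% of the 329 cells with an Fgf5 UMI also held one of Pou3f1 (29.4% of all cells did), 48.3% one of Sema6a (11.8%), 24.9% one of Penk (5.29%) and 14.0% one of Sox3 (5.15%). Genotype, day and cell depth are shared by these cells, and 138 of the 329 were in cluster 1. There, 83.3% of cells with an Fgf5 UMI held one of Pou3f1, against 78.3% of all cells of the cluster. For Sema6a these shares were 62.3% and 54%, for Penk 37.7% and 28.4%, and for Sox3 19.6% and 16.7%. In cluster 11, 83.3% of cells with an Fgf5 UMI held Pou3f1 and 57.1% Sema6a, against 48.3% and 27.5% of all its cells. How far the shares over all cells follow from cluster was not tested.

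Across the directed groups, the genes most like each member were ranked by the lower of 2 Pearson correlations of log2 CPM over the 12 genotype and time means of each series, among 18017 genes tested in both, as a description. For Sema6a these were Adgrl2 (0.947 in the mesoderm and 0.961 in the endoderm series), Plekhm1 (0.927 and 0.940) and Shroom2 (0.937 and 0.920). For Fgf5 they were Ddr1 (0.914 and 0.95), Zfp608 (0.910 and 0.961) and Xkr4 (0.871 and 0.941), and for Pou3f1 Emb (0.915 and 0.938), Sertad4 (0.908 and 0.917) and Tcte2 (0.905 and 0.927). Counts were low for Penk, Sox3 and, in the mesoderm series (0 to 13 per library), Fgf5. For Penk and Sox3 the first were Anapc2 (0.893 and 0.782) and Nefl (0.879 and 0.795). Among the members, Sox3 and Pou3f1 gave -0.37 in the mesoderm and 0.92 in the endoderm series, and Fgf5 and Sema6a 0.83 in both. The points share libraries and 12 means are few.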

How the data were processed

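The study measured RNA in 48 directed differentiation libraries, 24 bulk EB samples and 16 single-cell libraries, 88 samples in all. For the directed libraries the authors deposited estimated counts per gene, which the study attributes to Salmon; they were rounded to whole numbers here. For the bulk EBs the authors deposited counts divided by size factors (a scaled signal, 46 columns, up to 2 per line and day), from which whole reads were recovered in 100% of values within 0.02 and summed per line and day. For the single cells the authors deposited UMI counts per cell, with clusters. The submitters' processing notes also name CASAVA, Bowtie2, HTSeq, DESeq2, GRCm38 and mm10. Columns of the endoderm table named 28 h were taken as the 48 h Jarid2 null samples by their library names. The raw tables of single plates and the barcode list were not used.

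Directed counts were fitted with edgeR 4.0.16 (R 4.3.3), TMM scaling and a quasi-likelihood test, 1 mean per genotype and time over the 24 libraries of a series, with a filter at 10 counts (total 15), and adjusted by Benjamini-Hochberg over all genes tested. The 12 undifferentiated libraries were fitted with series as a term. EB reads were fitted with limma 3.58.1 (trend) on log2 CPM with a prior count of 2, genes with 1 CPM in 4 samples, and day or line as a block. DESeq2 1.42.0, other scalings, filters and prior counts, a replicate block and leaving out each library or day were the alternatives. The tests were checked on simulated data. No replicate libraries exist for single cells, so UMI sums are given with counting intervals, and thinning drew 2500 UMIs per cell, which moved 54 of 80 shares of cells with a UMI beyond their intervals. PCR duplicates in the bulk counts are not independent molecules. The genes and lists were chosen with earlier results of these data known. Named genes were the 5 members, the 3 targeted genes, up to 4 called genes per list and direction by absolute log2 fold change, and 3 genes most like each member.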

Additional observations from a re-analysis of the deposited data

Results flagged for a closer look

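For Pou3f1 in the endoderm series, the change from UD to 24 h differed between Mtf2 null and WT cells by a test of that difference, with a log2 value of 2.39 ± 0.32 (SE, adjusted p = 4.19e-05, edgeR). WT went from 6.36 ± 1.05 to 2.01 ± 0.856 CPM (SD, n = 2) and Mtf2 null from 7.16 ± 0.543 to 11.8 ± 0.433.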

How the results depend on the processing

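No result reversed. The counts of members called kept within 1.5 times under DESeq2, upper-quartile scaling, no filter and the EB alternatives, with these exceptions. The test of genotype by time in the mesoderm series went from 0 to 1 call (Pou3f1, Mtf2 null) under DESeq2 (1), upper-quartile scaling (1) and no filter (1). The line labelled Jarid2 null against JM8 went from 1 to 0 with no day block (0) and with edgeR on recovered reads (0), the latter added after seeing the data. Leaving out 1 library gave 4 to 6 calls for Mtf2 null and 1 to 2 for WT steps in the mesoderm series, 4 to 7 and 4 to 6 in the endoderm series, 0 for Jarid2 null in both, 0 to 1 and 1 for genotype by time, and 1, 0 and 1 in the undifferentiated fits. Leaving out 1 day or line of the EBs gave 0 for the lines labelled Mtf2 null and Eed null, 0 to 2 for that labelled Jarid2 null and 1 to 4 for WT days. Same-numbered libraries did not deviate together (median r 0.0069 and 0.0102 over 66 pairs of groups in each series, with 6 and 4 over 0.1), so they share only a number. With a replicate block the counts for Mtf2 null, Jarid2 null, WT steps and genotype by time were 6, 0, 2 and 0 in the mesoderm and 5, 0, 5 and 1 in the endoderm series, and 1, 0 and 1 in the undifferentiated fits. Of single tests of members under alternatives, 1377 kept direction and call, 26 lost a call and 15 gained one. The other 92 changed direction, with no call under either setting. Penk, Sox3 and, before 48 h, Fgf5 rest on few counts.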

Other observations

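In the bulk EBs, the step of WT from day 2 to day 4 in which Fgf5, Sema6a and Penk rose also brought 4 of 8 primitive streak genes (7 tested) up and 0 down, where 28.3% of all genes were called, with T (5.43), Lhx1 (4.70), Wnt3 (4.23) and Foxa2 (2.14, log2). Of 12 naive genes 7 were lower and 0 higher, with Nr0b1 (-3.93) and Klf4 (-3.16) first. Cpe (2.42) and Pcsk1 (2.22), whose products cut propeptides such as proenkephalin, were higher too, while their part in the level of Penk was not tested. Of 12 fibroblast growth factor pathway genes 4 were higher, among them Fgf8 (3.69) and Fgfr2 (2.01), and 4 lower, among them Fgf4 (-2.36).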
